A study of Mus musculus with 8 samples.

Results

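The genes described here encode the proteins of the cytoplasmic ribosome. They were chosen by name, as the rows of the gene table called Rpl, Rps or Rplp followed by a number, with Rpsa, and without rows named as pseudogene copies (-ps) or the Rps6k kinases. This gave 89 of the 47643 rows, of which 50 belong to the large subunit, 36 to the small subunit and 3 to the stalk (Rplp0, Rplp1 and Rplp2). RNA came from the quadriceps muscle of 8 C57BL/6 mice, 4 labelled Nup210-/- and 4 labelled Nup210+/+, with 1 library per mouse. Nup210 encodes a membrane nucleoporin of the nuclear pore. The Nup210-/- mice lack it in all tissues, since they come from crosses of floxed mice (loxP sites around an early exon) with a line that expresses Cre from the Hprt locus, and the labels give no treatment for either group. The age and sex of the sequenced mice are not given in the sources used here. Values are TPM (transcripts per 1000000 transcripts of a library), which are relative to transcript length and to the total of a library, so a higher share for one group of genes lowers the others. The number of reads behind each value is unknown.

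A ribosome holds 1 copy of nearly every ribosomal protein, and their mRNAs are among the most abundant in most cells. These mRNAs start with a 5′ terminal oligopyrimidine (TOP) tract, through which mTORC1 controls their translation. Adult skeletal muscle is unusual in that it makes a paralog, Rpl3l, in place of much of the ubiquitous Rpl3, and the same kind of switch occurs in elongation factor 1A, where muscle fibres use Eef1a2 and most other cells Eef1a1. Ribosomal protein genes have also left many processed copies in the mouse genome, whose sequence is close to that of the parent mRNA.

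Nup210 mRNA did not separate the genotypes as labelled, with 9.54, 10.79, 11.93 and 8.81 TPM in the libraries labelled Nup210-/- and 5.71, 10.11, 9.19 and 6.71 TPM in those labelled Nup210+/+, and the TPM do not show whether the exon is present. The 15 skeletal muscle fibre markers summed to between 117814 and 135299 TPM in all 8 libraries, as the tissue label says. One library, Nup210+/+ replicate 2, stood apart from the rest. It held 381.69 TPM of the 6 granulocyte precursor markers against 0.31 to 2.12 TPM in the other libraries, and 175.00 TPM of the 15 proliferation markers against 33.66 to 41.73 TPM. The 8 endothelial markers summed to 115.41 TPM in that library and to 128.16 to 142.27 TPM in the others. The leukocyte markers summed to 392.22 to 431.99 TPM in the Nup210-/- libraries and to 440.44 to 894.97 TPM in the Nup210+/+ libraries, and the 10 fibroblast and connective tissue markers to 724.48 to 851.87 against 902.91 to 1438.17 TPM. In bulk muscle, fewer cells of a type and less RNA per cell cannot be told apart. The part of these cell types in the values below was not tested. Values without Nup210+/+ replicate 2 are given beside the results that move with it.

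Of the 89 genes, 88 had a mean of at least 0.5 TPM and entered the test. The 1 left out, Rpl10l, a retrocopy of Rpl10 known from testis, was listed at 0 in all 8 libraries. The most abundant member was Rplp1, a stalk protein, with 857 ± 41.8 TPM in Nup210-/- (SD, n = 4) and 981 ± 96.4 TPM in Nup210+/+ muscle (SD, n = 4). It was followed by Rps2 of the small subunit with a mean of 762 TPM over the 8 libraries, the stalk protein Rplp0 with 717 TPM, Rps24 with 715 TPM and Rps12l1 with 673 TPM. The lowest rows above 0 were Rpl6l at 0.898 TPM, Rpl39l at 0.958 TPM, Rps3a3 at 3.07 TPM, Rps4l at 4.76 TPM and Rpl12 at 9.25 TPM. Rpl12 lies in the stalk base of every cytoplasmic ribosome, and its low value led to a check of how the estimates were divided among rows of like sequence. The annotation calls 85 members protein coding, 3 (Rps12l1, Rps3a2 and Rps3a3) processed pseudogenes and 1 (Rps4l) a transcribed processed pseudogene.

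Processed copies can be the same as the parent mRNA over a whole read. The first 75 coding bases, the length of a read in this study, are printed for pairs in which the copy took most of the estimate, and for Rpl3 and Rpl3l, which are separate genes. Capitals mark bases that differ within a pair, and all stretches are read 5′ to 3′ on the strand of the gene.
Rps12 (GRCm38 chr10:23786820-23787007, minus strand, coding exons): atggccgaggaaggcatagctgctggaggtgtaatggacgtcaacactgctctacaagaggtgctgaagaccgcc
Rps12l1 (GRCm38 chr7:56014016-56014090, plus strand, processed pseudogene): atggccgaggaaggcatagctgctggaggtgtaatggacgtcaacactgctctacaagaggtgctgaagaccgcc
Rpl5 (GRCm38 chr5:107900644-107902023, plus strand, coding exons): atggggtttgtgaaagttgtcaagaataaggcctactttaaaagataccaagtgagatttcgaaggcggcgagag
Gm15500 (GRCm38 chr7:114706089-114706163, minus strand, transcribed processed pseudogene): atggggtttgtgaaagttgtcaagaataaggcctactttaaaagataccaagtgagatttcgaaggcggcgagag
Rpl3 (GRCm38 chr15:80082511-80083326, minus strand, coding exons): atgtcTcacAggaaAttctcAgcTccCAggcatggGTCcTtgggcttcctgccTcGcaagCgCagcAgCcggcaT
Rpl3l (GRCm38 chr17:24727884-24728388, plus strand, coding exons): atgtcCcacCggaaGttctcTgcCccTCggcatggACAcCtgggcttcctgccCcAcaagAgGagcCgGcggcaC
No base differed in the first and second pair, and 18 of 75 differed between Rpl3 and Rpl3l. Over the whole coding sequence, all 820 windows of 75 bases in Rpl5 occurred in Gm15500 and 252 of the 340 windows of Rps12 occurred in Rps12l1, whereas none of the 1138 windows of Rpl3 occurred in Rpl3l. Reads from Rpl3 and Rpl3l can therefore be told apart, and reads from Rpl5 or Rps12 often cannot.

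Across the members, 420 other rows shared at least 2% of a member's 75-base windows, and 364 of them are annotated as processed pseudogenes. Together these rows held between 9154 and 13673 TPM per library, beside 24147 to 36119 TPM on the member rows. Summing each member with the rows that share its windows gave 85 families. The median family kept 92.8% of its TPM on the member's own row, but 23 families kept under 50% and 9 under 20%. Rpl12 kept 1.94% of its family, in which the row Gm10275 held 465 TPM. Rpl5, which binds 5S rRNA, kept 3.18%, and Gm15500 held 521 TPM. For Rps12 the share was 7.91%, with 673 TPM on Rps12l1, and for Rpl10, a late-joining protein of the large subunit, it was 8.22%. The sums came to 476 TPM for Rpl12, in place of 9.25 TPM on the own row, to 540 TPM for Rpl5 in place of 17.2 TPM, and to 793 TPM for Rps12 in place of 62.7 TPM. Of the families, 81 were then above 100 TPM, and the 4 below it were Rpl7l1, Rps4l, Rpl39l and Rpl10l. The Rpl3 family, at 106 TPM, was the next lowest.

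**Figure D1:**
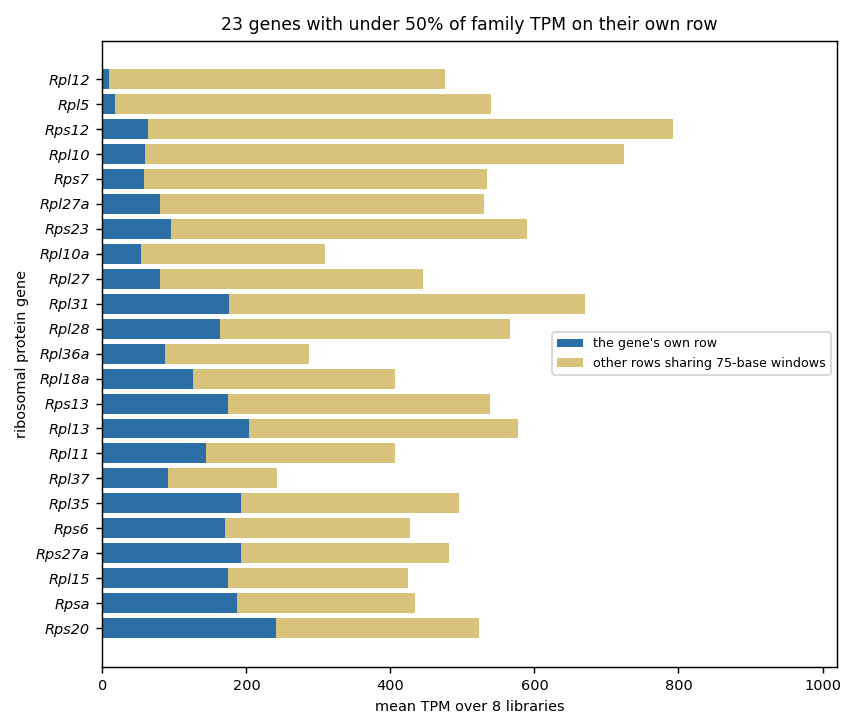
Mean TPM over the 8 libraries for the 23 ribosomal protein genes with under 50% of their family's TPM on their own row. Blue bars are the gene's own row and yellow bars the other rows that share 75-base windows with it; in Rpl12 the own row holds 1.94% and in Rps20 46.2% of the total.

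The summed TPM of the 89 members was 25055, 24147, 26086 and 25718 in the 4 Nup210-/- libraries and 27150, 36119, 28864 and 26205 in the 4 Nup210+/+ libraries. All 4 wild-type sums lay above all 4 knockout sums, with 26205 and 26086 TPM as the nearest values, and Nup210+/+ replicate 2 was the highest. The means were 25252 ± 851 TPM (SD, n = 4) and 29584 ± 4493 TPM (SD, n = 4), a ratio of 0.854, and 0.921 without Nup210+/+ replicate 2. Members made up 3.61% of all transcripts in that library and 2.41% to 2.89% in the others. After scaling of each library by the median of its ratios to the gene means, which removes differences that most genes share, the sums overlapped between genotypes and the ratio was 0.912, or 0.984 without Nup210+/+ replicate 2. The subunits kept a like proportion. The large-subunit sum was between 0.935 and 0.974 times the small-subunit sum in every library. The 3 stalk genes summed to 1950 to 2166 TPM in Nup210-/- muscle and to 2148 to 2686 TPM in Nup210+/+ muscle, with overlap between the genotypes.

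**Figure D2:**
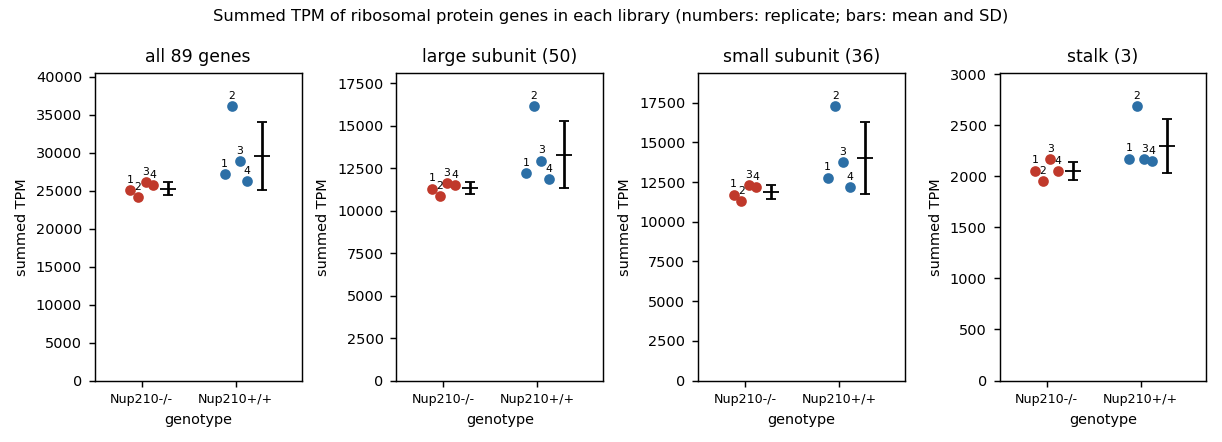
Summed TPM of all 89 genes and of the large subunit, small subunit and stalk genes in each library, with the genotype on the x axis, replicate numbers above the points, and bars for the mean and SD of 4 libraries. Nup210+/+ replicate 2 is the highest point in each panel (36119 TPM for all 89 genes), and the other 7 libraries lie between 24147 and 28864 TPM.

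In the comparison of Nup210-/- with Nup210+/+ muscle, 0 of the 88 members tested passed an adjusted p of 0.05 (limma on log2 of scaled TPM with 1 added, Benjamini-Hochberg adjustment over 14229 genes), where 0.112% of all genes tested did. The lowest adjusted p of a member was 0.218, for Rps12. At an unadjusted p of 0.05, 5 members had a lower estimate in Nup210-/- muscle and 1 a higher one, where 7.18% of all genes tested were lower and 7% higher, so the count of lower members was near the background and that of higher members under it. On scaled TPM the genotypes did not overlap for 2 members, Rpl13a and Rpl21, both lower in Nup210-/- muscle, where 4.6% of all genes were lower without overlap and 4.78% higher. On TPM as deposited, without the scaling between libraries, 15 members were lower and 0 higher without overlap, where 6.87% of all genes were lower and 1.54% higher.

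The estimates nevertheless lay mostly on one side. The log2 fold change was below 0 in 78 of the 88 members, where 51.3% of all genes had an estimate below 0, and the median was -0.14 beside -0.01 for all genes. The median was -0.15 over the 49 large-subunit genes tested, -0.13 over the 36 small-subunit genes and -0.05 over the 3 stalk genes. The median standard error of a member was 0.109, and 0.073 without Nup210+/+ replicate 2. Data were also simulated with independent genes at their spread in all 8 libraries. There the same fit recovered 0% of genes changed by 0.25 on the log2 scale and 29.3% of those changed by 0.5. In that setting a single gene changed by the median of the members would thus rarely be called.

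Most of the shift rested on Nup210+/+ replicate 2. After scaling, this library held the highest of the 8 values for 77 of the 88 members, where it held the highest value for 19.1% of all genes. Its level was a median of 1.32 times the middle of the other 7 libraries over the members and 1.00 times over all genes. Without it, 57 of the 88 members had an estimate below 0, where 49.8% of all genes did, and the median was -0.02 beside 0.00 for all genes. The adjusted p was then at least 0.148 in every member, and 0 members were called, where 0.0141% of all genes were. With TPM as deposited and this library left out, the median was -0.12 and that of all genes -0.08. Weighting libraries by their scatter, which gave this library a weight of 0.516, left a median of -0.07. In that fit 71 of the 88 members had an estimate below 0, where 7165 of the 14229 genes tested did. The same library holds the granulocyte precursor and proliferation markers given above, and their part in its ribosomal protein level was not tested.

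**Figure D3:**
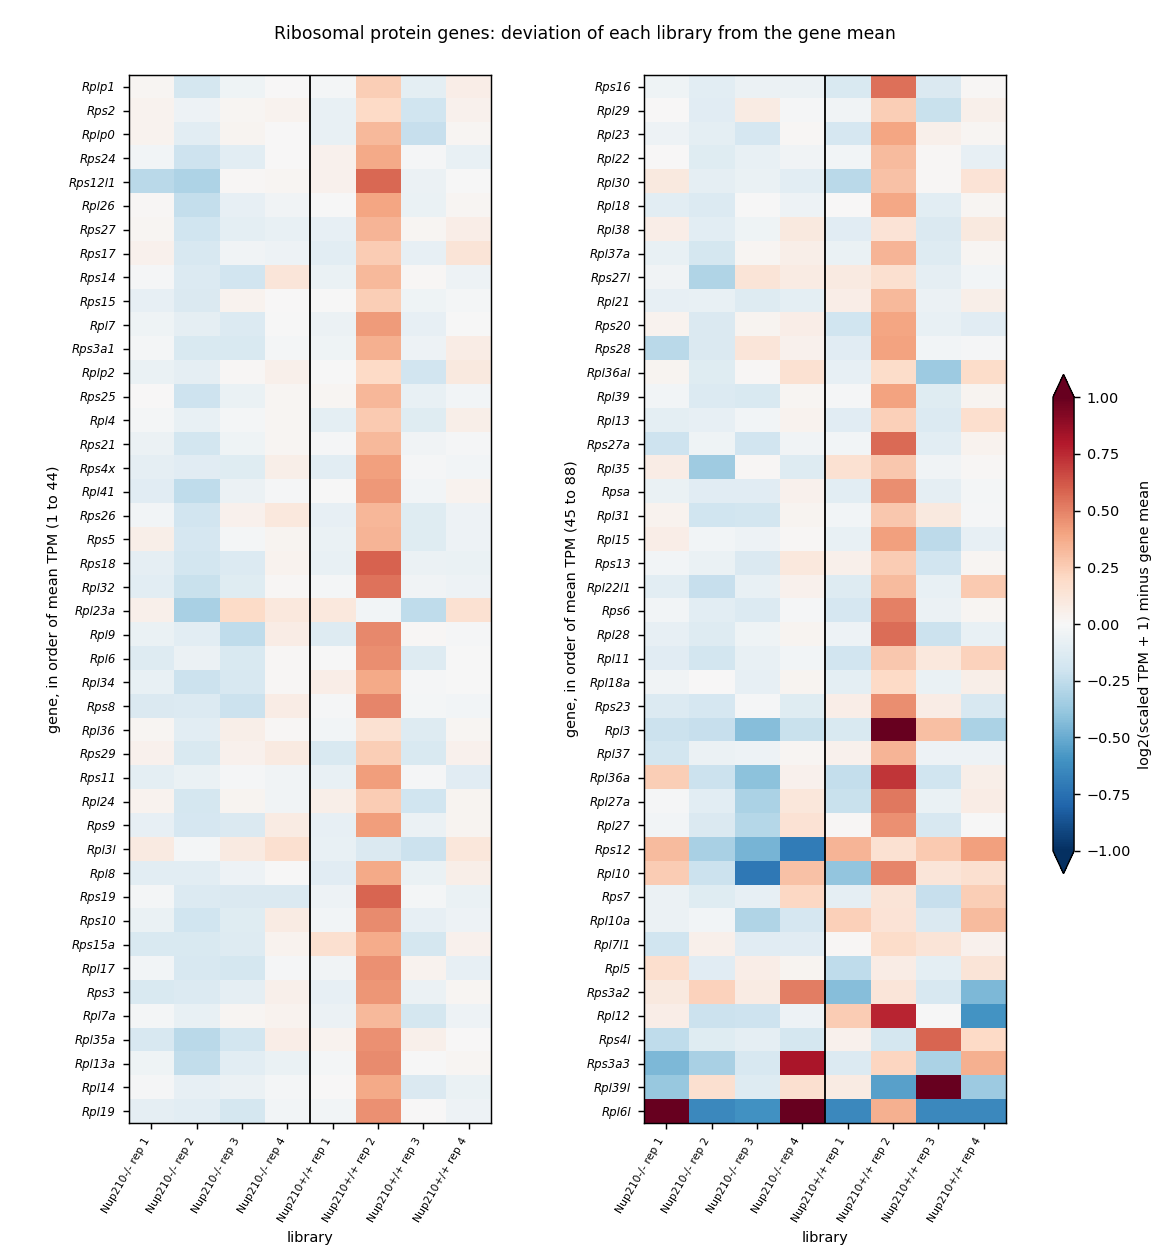
Deviation of each library from the gene mean on the log2(scaled TPM + 1) scale for the 88 genes tested, in order of mean TPM, with colour from blue (lower) to red (higher) cut at -1 and 1, and a line between Nup210-/- and Nup210+/+ libraries. The column of Nup210+/+ replicate 2 is red for most genes and holds the highest value for 77 of them, and the row of Rpl3l is not.

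Not every member followed that library. On its own row Rpl3 was highest in it relative to the other 7 libraries (2.81 times), and Rpl3 stayed first among the family sums (3.17 times). Rps18 was at 1.59 times on its own row and 1.60 times in the family sum, and Rps19 at 1.57 and 1.56 times. The ratios of Rpl36a and Rpl12 depended on how reads were divided, with 1.90 and 1.84 times on their own rows and 1.33 and 1.53 times in the family sums, where the median family was at 1.32 times. The same held for Rpl23a, at 0.913 times on its own row and 1.27 times in the family sum. Rpl3l, which shares no window with another gene, was at 0.853 times in both. Rps2 was at 1.13 times on either count. Rps9 had the same mean level as Rpl3l to 3 digits (372 TPM each) and stood at 1.42 times the middle of the others in Nup210+/+ replicate 2. Rps18, Rps19, Rps9 and Rpl23a were picked out after their values were seen.

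**Figure D4:**
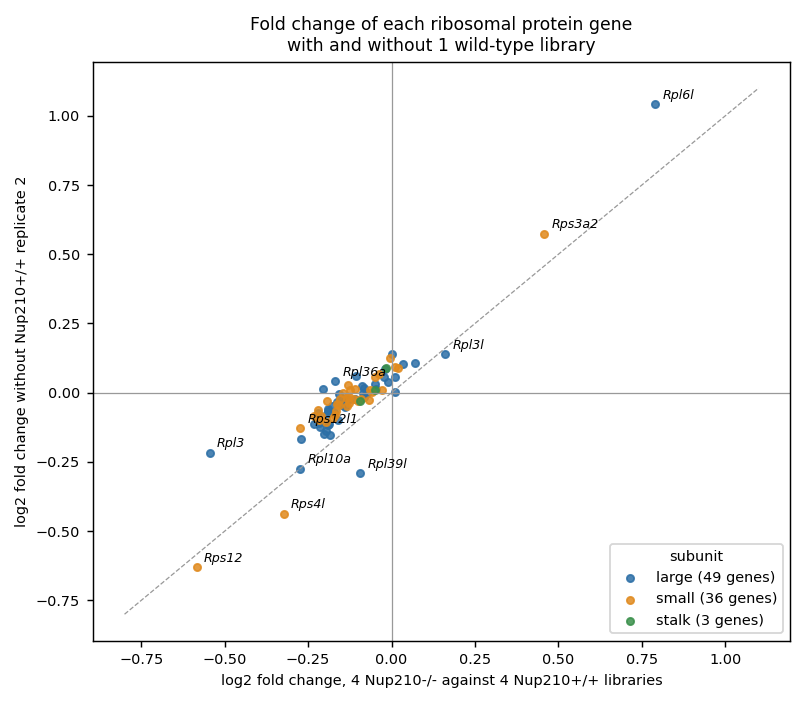
Log2 fold change (Nup210-/- minus Nup210+/+) of each of the 88 genes tested, from all 8 libraries on the x axis and without Nup210+/+ replicate 2 on the y axis, coloured by subunit, with a dashed line where both are equal. Most points lie above the dashed line and near 0 on the y axis (median -0.02). Points farther from 0 on both axes include Rps12 (-0.58 and -0.63), Rps4l (-0.32 and -0.44), Rps3a2 (0.46 and 0.57) and Rpl6l (0.79 and 1.04). The family sum of Rps12, which is not plotted, was at -0.31 and -0.18.

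In the small subunit, Rps12 had the lowest adjusted p. Its TPM were 71.13, 47.13, 43.37 and 34.30 in Nup210-/- and 78.37, 69.27, 81.22 and 76.59 in Nup210+/+ libraries. The first knockout library lay inside the wild-type range and the other 3 lay below it. The log2 fold change was -0.58 ± 0.19 (SE, limma adjusted p = 0.218) and -0.63 ± 0.21 without Nup210+/+ replicate 2. The pseudogene row Rps12l1, with the same first 75 bases as printed above, held 517.64, 525.77, 665.85 and 623.99 TPM in Nup210-/- and 696.97, 1016.32, 710.75 and 625.58 TPM in Nup210+/+ libraries. The genotypes overlapped there through the wild-type library at 625.58 TPM. Summed over the family, the log2 fold change of Rps12 was -0.31 ± 0.12 (SE, limma adjusted p = 0.297), or -0.18 without Nup210+/+ replicate 2, so the estimate for the own row alone depends on how reads were divided.

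The only member with an unadjusted p under 0.05 and a higher estimate was Rps3a2, a processed pseudogene of Rps3a. It had 9.37, 10.84, 9.84 and 12.69 TPM in Nup210-/- and 6.78, 10.45, 9.17 and 6.18 TPM in Nup210+/+ libraries. Wild-type replicate 2, at 10.45 TPM, lay inside the knockout range and the other wild-type values lay below it. The log2 fold change was 0.46 ± 0.15 (SE, limma adjusted p = 0.219). Of its 75-base windows 86.4% occur in other genes, whose rows in the table hold 561 TPM in all. The family sum headed by Rps3a1 had a log2 fold change of -0.16 ± 0.09. Rps3a1 itself held 97.7% of that sum, so the sum says little of Rps3a2. The part of read division in the Rps3a2 estimate was not tested. The companion row Rps3a3 held 1.77 to 5.54 TPM in Nup210-/- and 2.42 to 3.85 TPM in Nup210+/+ libraries. Among abundant small-subunit proteins, Rps2 had a log2 fold change of 0.02 ± 0.08 and Rps24 of -0.17 ± 0.10, or 0.09 ± 0.07 and -0.07 ± 0.07 without Nup210+/+ replicate 2. The sign of the Rps2 estimate turned with the scaling and was -0.075 on TPM as deposited.

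In the large subunit, Rpl13a, which is known for a role in the translational control of inflammatory mRNAs, had 284.91, 257.81, 289.23 and 277.27 TPM in Nup210-/- and 314.52, 446.50, 346.97 and 299.54 TPM in Nup210+/+ libraries. The groups did not overlap. Its log2 fold change was -0.23 ± 0.11 (SE, limma adjusted p = 0.387) and -0.11 ± 0.06 without Nup210+/+ replicate 2. Rpl21 had 218.59, 228.20, 223.55 and 213.92 TPM in Nup210-/- and 262.16, 316.28, 263.10 and 242.59 TPM in Nup210+/+ libraries, again without overlap. Its log2 fold change was -0.19 ± 0.08 (SE, limma adjusted p = 0.315) and -0.12 ± 0.05 without Nup210+/+ replicate 2 (limma adjusted p = 0.403). The row kept 54.9% of its family.

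Rpl10a, a protein of the stalk beside the exit site, had 48.08, 51.17, 42.95 and 43.91 TPM in Nup210-/- and 64.17, 60.35, 53.66 and 62.98 TPM in Nup210+/+ libraries. The groups did not overlap as deposited and overlapped after scaling, and the log2 fold change was -0.27 ± 0.11 (SE, limma adjusted p = 0.290). The row kept 17.3% of its family, and the family sum had a log2 fold change of -0.11 ± 0.12 and 0.01 without Nup210+/+ replicate 2. Rpl5 went from 0.07 ± 0.10 on its own row to -0.19 ± 0.13 in the family sum, and Rpl12 from -0.21 ± 0.24 to -0.18 ± 0.13. Without Nup210+/+ replicate 2 these family sums were at -0.04 and -0.03. Rpl10 had 34.78 to 66.38 TPM in Nup210-/- and 44.84 to 84.31 TPM in Nup210+/+ libraries on its own row, with a log2 fold change of -0.19 ± 0.25, and -0.08 ± 0.11 in the family sum, or -0.06 and 0.04 without Nup210+/+ replicate 2. Over all 84 families tested, 81 had an estimate below 0, the median was -0.13, and 0 passed an adjusted p of 0.05, where 0.149% of all rows did. Without Nup210+/+ replicate 2, 58 of 84 were below 0 and the median was -0.04. Summing the copies therefore left the median where it was and moved single genes by -0.26 (Rpl5) to 0.27 (Rps12) on the log2 scale.

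The largest estimate was in a row of low level. Rpl6l, annotated as protein coding on chromosome 10, had 3.79, 0.00, 0.03 and 2.32 TPM in Nup210-/- and 0.00, 1.04, 0.00 and 0.00 TPM in Nup210+/+ libraries. It was listed at 0 in 4 of the 8 libraries, and its log2 fold change of 0.79 ± 0.54 rested on 2 knockout libraries. Of its windows 69.4% occur in other genes. Rpl39l, Rpl3, Rps3a3, Rpl10, Rpl12 and Rpl36a varied widely within a genotype as well. Their standard deviations were 0.52, 0.51, 0.46, 0.42, 0.41 and 0.37 on the log2 scale, beside 0.12 for Rplp1. Of these, the rows of Rpl10, Rpl12 and Rpl36a kept 8.22%, 1.94% and 30.0% of their families.

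Of the 8 pairs of a gene with a related gene or copy, 7 had both at a measurable level, and the ratio within each pair does not depend on the library total. In muscle Rpl3l was the main form. It held 374.29, 361.65, 396.02 and 388.10 TPM in Nup210-/- and 362.17, 348.44, 358.61 and 382.93 TPM in Nup210+/+ libraries. Rpl3 held 69.87, 72.07, 63.77 and 68.84 TPM in Nup210-/- and 79.28, 214.19, 119.05 and 65.45 TPM in Nup210+/+ libraries. Rpl3l thus differed little between libraries, while Rpl3 was close to 70 TPM in the knockout libraries and spread over a wide range in the wild type. The sum of both genes was 434 to 460 TPM in Nup210-/- and 441 to 563 TPM in Nup210+/+ libraries, and Rpl3l made up 61.9% to 86.1% of it.

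The ratio of Rpl3l to Rpl3 was 5.36, 5.02, 6.21 and 5.64 in Nup210-/- and 4.57, 1.63, 3.01 and 5.85 in Nup210+/+ libraries. The lowest ratios were in Nup210+/+ replicates 2 and 3, which also had the highest sums of leukocyte markers (741.34 and 894.97 TPM), and the part of those cells was not tested. The genotypes differed by 0.71 on the log2 scale (two-sided exact permutation p = 0.114, 0.767 after Benjamini-Hochberg adjustment over 7 pairs), where 0.0286 is the smallest p that 4 against 4 libraries allow. Without Nup210+/+ replicate 2 the difference was 0.36 (exact p = 0.171). By limma, Rpl3 had a log2 fold change of -0.55 ± 0.29 (adjusted p = 0.427) and Rpl3l of 0.16 ± 0.08 (adjusted p = 0.387). Without Nup210+/+ replicate 2 the log2 fold change of Rpl3 was -0.22 ± 0.14 (limma adjusted p = 0.552) and that of Rpl3l 0.14 ± 0.08.

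**Figure D5:**
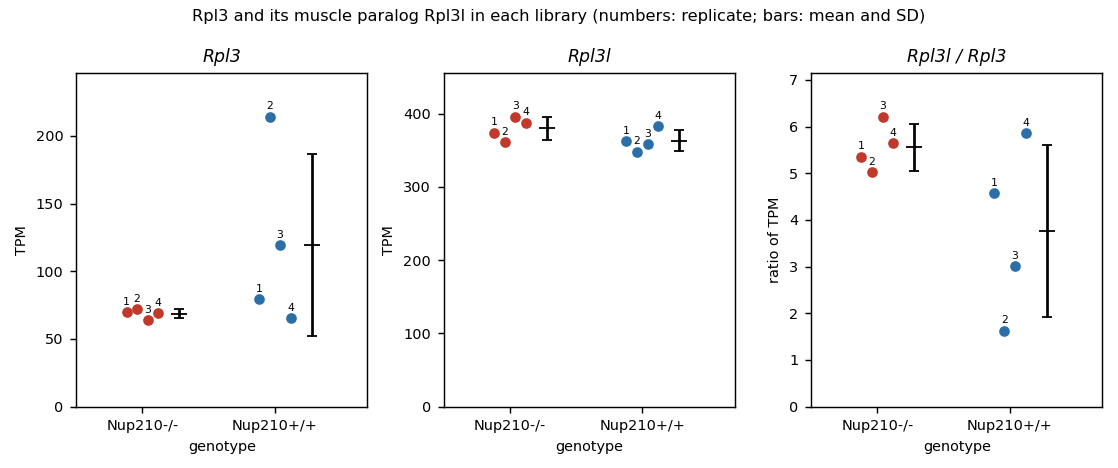
TPM of Rpl3 and of Rpl3l and the ratio of Rpl3l to Rpl3 in each library, with the genotype on the x axis, replicate numbers above the points, and bars for the mean and SD of 4 libraries. Rpl3l lies between 348 and 396 TPM in all libraries, whereas Rpl3 reaches 119 and 214 TPM in Nup210+/+ replicates 3 and 2, where the ratio is 3.01 and 1.63.

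Over all 8 libraries, the other pairs differed between genotypes by less than the spread of the libraries, with log2 differences of -0.26 to 0.21. The two-sided exact permutation p values were 0.286 to 0.886, and 0.767 to 0.886 after adjustment. Without Nup210+/+ replicate 2 the differences were -0.51 to 0.07. The -0.51 was that of Rps4l to Rps4x, whose ratios then did not overlap between genotypes. Rpl22l1 was at 0.585 to 0.803 times the level of Rpl22, with means of 173 and 273 TPM, and the log2 ratio differed by -0.08. Rps27l, a target of p53, was at 0.362 to 0.480 times the level of Rps27, with a difference of 0.11. Rpl36al was more abundant than its parent row Rpl36a in every library, by 1.79 to 3.49 times, but Rpl36a kept 30.0% of its family on its own row. Rpl7l1, a nucleolar relative of Rpl7, was at 0.0320 to 0.0437 times the level of Rpl7, and its own log2 fold change was -0.19 ± 0.07 (SE, limma adjusted p = 0.298).

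The remaining pairs had a copy of low level. Rpl39l, known from testis, was at 0.0142 times the level of Rpl39 or below, with 0.26 to 3.01 TPM. Rps4l had 3.50, 4.09, 4.30 and 3.70 TPM in Nup210-/- and 4.92, 4.10, 8.31 and 5.18 TPM in Nup210+/+ libraries, about 0.0063 to 0.0159 times the level of Rps4x. Its ratio to Rps4x differed by -0.26 on the log2 scale, and by -0.51 without Nup210+/+ replicate 2 (exact permutation p = 0.0286, the smallest that 4 against 3 libraries allow, and 0.200 after adjustment over 7 pairs).

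Some letters that the naming rule did not use were more frequent in promoters of the members than in all promoters. RefSeq windows from 250 bases before to 50 after the gene start (GRCm38.p6) were found for 64 members, with the first entry taken where a gene has several. CGGAAG, the core that ETS factors bind, was present on either strand in 43 of these (67.2%) and in 17.2% of 27025 promoters in all. An unbroken run of 8 or more C or T within 15 bases of the start has the composition of a TOP tract. It was present in 25 members (39.1%) and in 11.9% of all promoters. AAGATGG on the gene strand was present in 5 members (7.81%) and in 3.7% of all promoters. Promoters of 2 abundant members with both of the first features are shown beside that of Rpl3l, from 100 bases before to 20 after the listed start. Capitals mark CGGAAG or its reverse complement and the part of the pyrimidine run within 15 bases of the start. In Rpl4 the run lies before the listed start and goes on upstream in lower case. The 6-letter match and the run do not overlap in these windows.
Rps27 (GRCm38.p6 chr3:90213629-90213748, minus strand): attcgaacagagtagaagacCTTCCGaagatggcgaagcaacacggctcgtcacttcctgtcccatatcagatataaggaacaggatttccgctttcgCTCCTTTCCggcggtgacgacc
Rpl4 (GRCm38.p6 chr9:64173287-64173406, plus strand): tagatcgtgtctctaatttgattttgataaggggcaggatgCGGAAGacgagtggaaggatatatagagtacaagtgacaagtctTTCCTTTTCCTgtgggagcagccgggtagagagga
Rpl3l (GRCm38.p6 chr17:24727726-24727845, plus strand): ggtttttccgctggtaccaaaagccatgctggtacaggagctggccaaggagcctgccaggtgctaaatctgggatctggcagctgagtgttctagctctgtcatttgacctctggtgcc
The window shown for Rpl3l holds neither feature. A listed start can differ from the start used in muscle, so the absence of these letters says nothing of the factor.

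Other genes of the translation machinery were examined as lists, each beside the median of -0.01 over all genes, or 0.00 without Nup210+/+ replicate 2. Of 3 ribosomal component genes outside the naming rule, 2 had lower and 1 a higher estimate, and 0 passed the adjusted threshold. Their median was -0.16, and -0.03 without Nup210+/+ replicate 2. The lowest was Fau, whose product carries a small-subunit protein, at -0.27 ± 0.14, and at -0.15 without Nup210+/+ replicate 2. Of 13 elongation and termination factors, 7 had lower and 6 higher estimates, the median was -0.01, and 0 passed the adjusted threshold. Without Nup210+/+ replicate 2, 3 of these factors had lower and 10 higher estimates, with a median of 0.05. Eef1a1 had 409.89, 421.92, 412.44 and 399.90 TPM in Nup210-/- and 537.29, 1148.62, 763.21 and 403.47 TPM in Nup210+/+ libraries, high in the same libraries as Rpl3, with a log2 fold change of -0.59 ± 0.25 (limma adjusted p = 0.329) and of -0.32 without Nup210+/+ replicate 2. Its muscle counterpart Eef1a2, picked out after its values were seen, had 781.93 to 855.11 TPM in Nup210-/- and 730.60 to 793.84 TPM in Nup210+/+ libraries, with a log2 fold change of 0.19 ± 0.07 (limma adjusted p = 0.297). Both pairs, Rpl3 with Rpl3l and Eef1a1 with Eef1a2, thus showed the ubiquitous form at its highest in Nup210+/+ replicates 2 and 3. The highest estimate of the list was that of Eef2k, the kinase that inhibits elongation factor 2, at 0.27 ± 0.08.

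Of 38 initiation factors, 13 had lower and 25 higher estimates, and 0 passed the adjusted threshold. The median was 0.04, and 0.07 without Nup210+/+ replicate 2. From all 8 libraries the estimates ranged from Pabpc1, the poly(A)-binding protein and itself a TOP mRNA, at -0.39 ± 0.21 (-0.14 without Nup210+/+ replicate 2) to the scaffold Eif4g3 at 0.37 ± 0.05. Eif4g3 had 51.40, 57.07, 53.97 and 49.36 TPM in Nup210-/- and 44.60, 42.75, 45.67 and 40.73 TPM in Nup210+/+ libraries. The groups did not overlap, and the limma adjusted p was 0.053.

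The 58 ribosome biogenesis factors measured had lower estimates in 37 and higher in 21, with a median of -0.02 and 0.01 without Nup210+/+ replicate 2. The lowest was Nop58, a core protein of box C/D particles, at -0.43 ± 0.18 (-0.23 without that library), and the highest Pes1 at 0.19 ± 0.12. The 15 genes of RNA polymerase I and rDNA transcription had a median of -0.07, and of -0.03 without that library. Their estimates ran from Taf1d at -0.28 ± 0.12 to Polr1b at 0.08 ± 0.13 (0.17 without that library). The 30 genes of the mTORC1 pathway and of TOP mRNA control had a median of 0.02, and of 0.03 without that library. Their estimates ran from Myc at -0.76 ± 0.30 (-0.50 without that library) to Ddit4, an inhibitor of mTORC1, at 0.73 ± 0.20. The 13 chaperones and surveillance factors of ribosomal proteins had a median of 0.04, and of 0.08 without that library. Their estimates ran from Zfp598 at -0.08 ± 0.07 (-0.04 without that library) to Pdcd2l at 0.14 ± 0.07. None of these lists held a gene past the adjusted threshold by limma, and at an unadjusted p of 0.05 they held 3 lower and 0 higher (biogenesis), 1 and 0 (RNA polymerase I), 2 and 6 (mTORC1) and 0 and 0 (chaperones), beside 1 and 2 of the elongation and termination factors and 0 and 3 of the initiation factors, where 7.18% of all genes tested were lower and 7% higher. The markers of other cells showed lower estimates in 18 of 18 leukocyte genes tested, of which 1, Cd52, passed the adjusted threshold at -0.81 ± 0.10 (limma adjusted p = 0.049), and in 10 of 10 fibroblast genes, with 12 and 8 of them at an unadjusted p under 0.05 and medians of -0.56 and -0.47 (-0.43 and -0.51 without Nup210+/+ replicate 2). The granulocyte precursor and proliferation lists had medians of -1.45 and -0.67, and of 0.02 and -0.06 without Nup210+/+ replicate 2, while the muscle fibre list had 0.17 and the endothelial list 0.11, or 0.14 and 0.05 without that library.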

How the data were processed

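Quadriceps RNA of 4 Nup210-/- and 4 Nup210+/+ mice was selected for polyA and sequenced from directional libraries as single reads of 75 bases. The authors trimmed reads with cutadapt 2.3, aligned them to mm10 with STAR 2.7.0d, estimated expression with RSEM 1.3.1 and Ensembl 84 annotation, and deposited TPM per gene and library, without pooling. The strand setting and the treatment of reads that match several genes are not given in the sources used here. Of the 89 members, 28 overlap exons of another gene on the same strand and 20 on the opposite strand. TPM give no depth, so no interval is given for a single library. The estimated counts that the authors compared with DESeq2 were not used here.

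TPM were divided by the median of ratios over 15225 genes above 0 in all libraries (15138 where the members were left out), and log2(scaled TPM + 1) was tested for the 14229 genes with a mean of at least 0.5 TPM, with limma 3.58.1 in R 4.3.3 (trend, genotype as the only term, Benjamini-Hochberg adjustment at 0.05). Fold changes are on that scale, which understates those of low genes. Ratios of paralogs were compared by two-sided exact permutation over 70 labelings. The limma fit was tested on simulated data: of 200 genes changed by 0.25, 0.5 and 1 on the log2 scale it recovered 0%, 29.3% and 79.2%. Each library is a separate mouse. Coordinates and 75-base windows are from GENCODE M21 (GRCm38), matched by gene identifier for all 89 members. The limit of 2% of windows for a family was set after seeing the data.

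The members, gene lists and tests were chosen with earlier results of these data known. Named genes are the 5 highest and 5 lowest members by mean TPM and by fold change, any past the adjusted threshold, those without overlap of genotypes, the 3 with the largest scatter, all paralog pairs, all under the filter, and the extremes of each list. One gene of these lists is not reported here. Alternatives were other pseudocounts (0.1 and 0.5), filters, scalings and variance models, library weights, the replicate block, each library left out and family sums. Plots used matplotlib 3.10.9 and Python 3.11.15.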

Additional observations from a re-analysis of the deposited data

Results flagged for a closer look

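In a group of 4 libraries, a value was looked at again when its gap to the nearest other library, as a share of the range of the group, passed Dixon's critical value. Of 94 groups examined over the 30 named members, their sums, the pair ratios and the marker sums, 9 met this, and 8 of the 9 were in Nup210+/+ replicate 2. For independent groups chance alone gives about 1 in 20. These groups share libraries and members, and some members were named for their scatter, so the count cannot be judged against that rate. Rps2 reached 902.84 TPM there, and 741.32 to 745.57 TPM in the remaining wild-type libraries. Rplp0 was at 923.46 TPM against 680.67 to 697.15 TPM, and the stalk genes together at 2685.97 against 2148 to 2174 TPM. Rpl39 was at 282.14 TPM against 199.82 to 211.55 TPM, and Rpl36a at 143.42 TPM against 72.79 to 83.53 TPM. Rpl6l was at 1.04 TPM, where the other wild-type libraries list 0. The granulocyte precursor markers summed to 381.69 TPM against 0.31 to 2.12 TPM, and the proliferation markers to 175.00 TPM against 39.34 to 41.73 TPM. The remaining value was a low one, 605.64 TPM of Rps24 in Nup210-/- replicate 2, where the knockout libraries beside it held 657.50 to 664.69 TPM. The same library as a whole held the lowest scaled value of the 8 for 28 of the 88 members, and for 10.01% of all genes.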

How the results depend on the processing

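No member passed an adjusted p of 0.05 by limma in the main analysis or under any alternative run, and the median log2 fold change of the members stayed below 0 in all of them, from -0.23 on TPM as deposited to -0.02 without Nup210+/+ replicate 2, and from -0.18 to -0.02 when single libraries were left out. The ratio of summed TPM ranged from 0.822 to 0.921 when single libraries were left out. The count of members at an unadjusted p of 0.05 with a lower estimate was 5, and 34 on TPM as deposited, 22 on TPM as deposited without Nup210+/+ replicate 2, 16 on rescaled TPM, 8 with library weights or family sums, 2 with upper-quartile scaling and 1 to 8 when single libraries were left out. The share of all genes, 7.18%, is known for the main analysis only, so the other counts have no background beside them. On TPM as deposited 69.6% of all genes tested had an estimate below 0, against 51.3% after scaling. The counts without scaling thus include a shift that most genes share. The stalk median ranged from -0.12 to 0.01 when single libraries were left out.

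Over all genes, 7 were called higher and 9 lower. The counts were 11 and 11 with a pseudocount of 0.1, 0 and 1 with any TPM above 0, 0 and 0 with a mean of at least 0.1 TPM, 14 and 13 with at least 1 TPM, 2 and 12 on TPM as deposited, 0 and 0 with upper-quartile scaling, 3 and 10 on rescaled TPM, 0 and 0 without the trend, 43 and 41 with library weights, 11 and 10 with family sums, and 0 to 2 higher and 0 to 8 lower when single libraries were left out. With Nup210+/+ replicate 2 left out they were 0 and 2, also with family sums, and 2 and 12 on TPM as deposited. The related lists held 1 called gene, Eif4g3, with a pseudocount of 0.1, at least 1 TPM, robust variances or library weights, 0 otherwise, and 0 in each analysis with 1 library left out. The cause of these changes was not tested.

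The labels do not say whether replicate numbers pair the mice. Correlations of same-numbered libraries ran from -0.033 to 0.086, and those of differently numbered ones from -0.081 to 0.103. These values cannot show whether mice shared a batch. With the replicate number as a block, 0 genes were called higher and 0 lower, the median of the members was -0.14, and the Rpl3l to Rpl3 ratio differed by 0.71.

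Some named estimates near 0 changed sign. Rps2 was -0.075 on TPM as deposited and -0.016 on rescaled TPM, and ranged from -0.043 to 0.089 when single libraries were left out. Rpl5 was -0.021 as deposited and -0.19 in family sums (-0.0031 to 0.12 without single libraries), and Rpl36al -0.059 and -0.019 (-0.078 to 0.10). Rplp0 was 0.0097 with upper-quartile scaling and 0.025 with library weights (-0.097 to 0.088). When single libraries were left out, Rpl39l ranged from -0.29 to 0.23, Rps3a3 from -0.34 to 0.083, Rps27l from -0.12 to 0.023, Rpl10 from -0.35 to 0.016, Rpl12 from -0.44 to 0.013 and Rpl36a from -0.28 to 0.042. So did the log2 ratios of Rpl39l to Rpl39 (-0.43 to 0.89), Rpl7l1 to Rpl7 (-0.14 to 0.0069) and Rpl22l1 to Rpl22 (-0.13 to 0.023).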
